A study of Mus musculus with 24 samples.

Results

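The cytosolic ribosomal protein genes of mouse microglia-rich cells were followed through 8 groups of brain samples. A gene was taken when its symbol was Rpl or Rps with a number and at most a letter or X after it, or was Rplp0, Rplp1, Rplp2 or Rpsa. Pseudogenes, the Rps6k kinases and paralogs whose symbol ends in l were left out. The rule found 76 genes among the 55487 listed, 46 for the large (60S) and 30 for the small (40S) subunit. It does not take 4 ribosomal protein genes with other kinds of names, among them Fau, Rack1 and Rps3a1, which are given separately.

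The samples, labelled microglia, were CD11b-positive cells isolated on magnetic beads after the meninges had been removed, from the frontal cortex or the striatum of male mice aged 8 to 10 weeks. CD11b is a surface integrin of microglia and other myeloid cells, so the sort can also hold neutrophils, monocytes and border macrophages. The mice were control (CON) offspring or offspring exposed before birth to maternal immune activation (MIA), which is an immune challenge of the pregnant dam, and each received saline or lipopolysaccharide (LPS, a bacterial cell wall component) at 4500 endotoxin units per gram, 18 h before the cells were taken. No transgene or other genetic change is named in the labels for any group. Crossing prenatal history, region and injection gave 8 groups of 3 libraries, and the library titled as excluded, MIA striatum LPS replicate 3, was set aside, which left 23.

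The ribosome translates all cytosolic mRNA. Its small subunit reads the mRNA, and its large subunit forms the peptide bond and carries a flexible stalk of P proteins that recruits elongation factors. Ribosomal protein mRNAs begin with a run of pyrimidines, the terminal oligopyrimidine (TOP) motif, through which the kinase mTOR and the RNA-binding protein LARP1 set how well they are translated. Their transcript level is usually high, even across tissues and only modestly regulated, while new ribosomes are assembled in the nucleolus by a separate set of factors. Microglia given LPS change from surveying cells to cells that make cytokines and other secreted proteins, all of which must be translated.

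The start-site windows of 8 members are shown as examples with and without the pyrimidine run, among them genes that rose with LPS in control offspring. Each window holds 15 bases before and 15 bases from the transcription start onward in RefSeq on mouse build GRCm38.p6, read 5′ to 3′ on the strand of the gene. Capitals mark the tract searched, a C followed by at least 4 bases that are each C or T. Only the longest such tract of each window is in capitals, and other stretches that meet the definition stay in lower case.
Rps2 (chr17:24720048-24720077, plus strand): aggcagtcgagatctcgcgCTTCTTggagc
Rpl38 (chr11:114668565-114668594, plus strand): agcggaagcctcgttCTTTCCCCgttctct
Rpl12 (chr2:32961697-32961726, plus strand): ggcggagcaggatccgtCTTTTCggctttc
Rps6 (chr4:86857353-86857382, minus strand): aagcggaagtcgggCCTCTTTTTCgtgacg
Rps27 (chr3:90213634-90213663, minus strand): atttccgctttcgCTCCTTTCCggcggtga
Rpl13a (chr7:45128731-45128760, minus strand): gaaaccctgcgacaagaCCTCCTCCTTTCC
Rplp0 (chr5:115559452-115559481, plus strand): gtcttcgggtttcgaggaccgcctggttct
Rpsa (chr9:120127751-120127780, plus strand): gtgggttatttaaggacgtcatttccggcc

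Of the 76 members, 56 had a start site in the RefSeq promoter table. A tract lay somewhere in the window of 37 of these 56 (66.1%), against 40.3% of 27025 genes, and began exactly at the annotated start in 13 (23.2%), against 3.01%. In Rpl38 it began at the start itself and ran for 8 bases, while Rplp0 and Rpsa had none in the window. In the 300-base promoters, searched on both strands, CCGGAAGT was found in 19.6% of members against 4.31% of genes, and TATAAA in 10.7% against 15.7%. These are matches of letters and not tested sites. With LPS, the 37 members with the tract and the 19 without it had median log2 fold changes of 0.53 and 0.50 in control cortex and of 0.58 and 0.52 in control striatum.

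Total counts ran from 19453295 to 29480499 per library, and all 76 passed the filter on low counts along with 17063 other genes. Many values of the members held reads divided with other genes. The share of such reads was not measured, and a single divided read is enough to make a value fractional. Of the members' values above 0, 87.4% were not whole numbers, against 20.3% of all values above 0, since the counting program, RSEM, divides a read among the transcripts that it matches, and 297 listed rows are pseudogenes named after 59 of the members. Markers of the labelled cell type were abundant, and 15 microglial genes had a summed level between 47800 and 83000 CPM (counts relative to the library's scaled total, as edgeR gives them). The labels do not say whether replicates came from separate animals, so p-values measure the spread between these libraries. Litters are not given either, so an effect of MIA cannot be told apart from a difference between litters.

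Levels of members differed widely. Rplp0, the anchor of the stalk, had the highest mean over the 23 libraries at 1090 CPM, followed by Rpl4 (952 CPM), which lines the exit tunnel, and Rpl3 (692 CPM), which lies near the catalytic centre. The lowest means were those of the 40S gene Rps21 (27.7 CPM), of Rpl38 (41.0 CPM) and of Rpl22 (45.0 CPM), and the median member stood at 196 CPM. Per kilobase of transcript, Rplp0 still ranked highest at 804 CPM per kilobase, with Rpl10 (793) and Rps27 (790) next. Rps27, among the shortest members, ranked 29 by CPM and 3 per kilobase, whereas Rpl4 and Rpl3, which ranked 2 and 3 by CPM, ranked 9 and 14 per kilobase.

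Members varied together from library to library, also within a group. A single principal component held 79.0% of the variance of the 76 genes over the libraries, and 85.5% after the group means were removed. The variance within groups was 52.2% of the total. In control cortex after LPS, replicate 2 was the highest library for 74 of the 76 members and replicate 3 the lowest for all 76. Likewise, control cortex saline replicate 3 was the lowest of its group for all 76, MIA cortex saline replicate 1 the highest for 75, and MIA striatum saline replicate 3 the lowest for 75.

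The summed share of counts shows the same spread. In saline it was 1.72%, 1.72% and 1.29% in the 3 libraries of control cortex and 1.69%, 1.58% and 1.31% in those of control striatum. After LPS it was 2.13%, 2.76% and 1.41% in control cortex and 1.57%, 2.48% and 1.90% in control striatum. The control groups therefore overlap in both regions, through replicate 3 in cortex and replicate 1 in striatum. In MIA offspring the share in saline was 2.57%, 1.70% and 1.65% in cortex and 2.21%, 2.28% and 1.72% in striatum. After LPS it was 2.12%, 2.37% and 2.09% in MIA cortex and 2.17% and 2.15% in MIA striatum, inside the range of the saline libraries. Group means ± SD went from 1.58% ± 0.247 to 2.10% ± 0.673 in control cortex, from 1.53% ± 0.196 to 1.98% ± 0.462 in control striatum, from 1.97% ± 0.517 to 2.19% ± 0.156 in MIA cortex (n = 3 each), and from 2.07% ± 0.304 (n = 3) to 2.16% ± 0.013 (n = 2) in MIA striatum. In these bulk samples fewer cells of a type and less RNA per cell cannot be told apart.

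**Figure D1:**
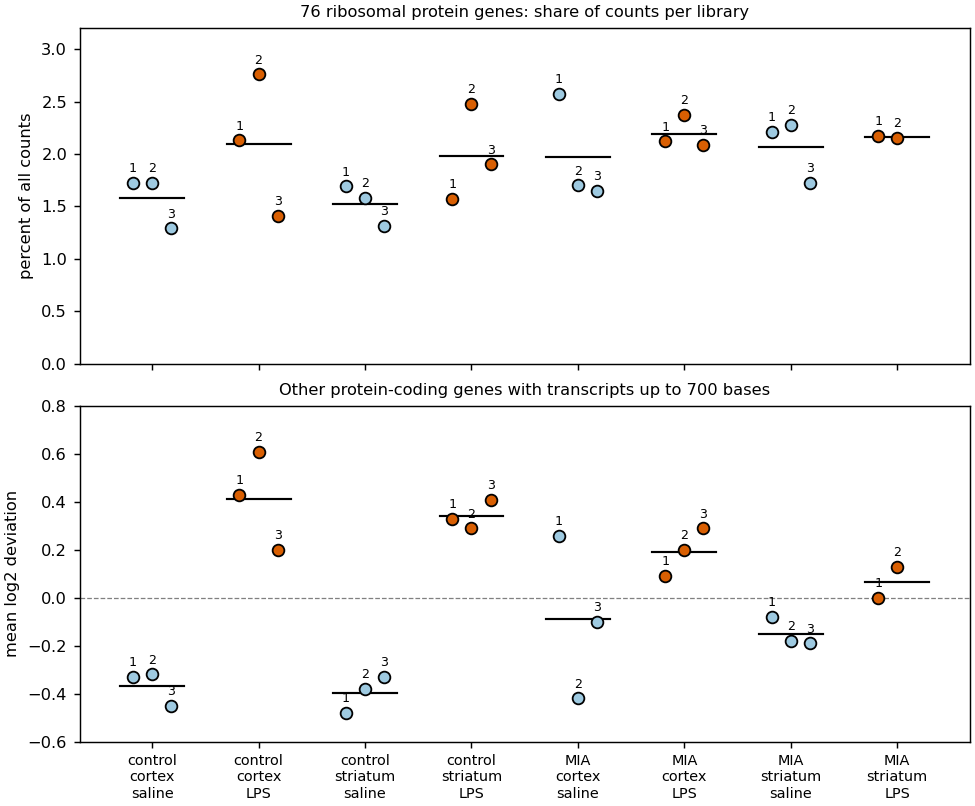
Upper panel: share of all counts (percent, axis from 0) that fell on the 76 ribosomal protein genes in each of the 23 libraries, with replicate numbers beside the points and group means as bars. Lower panel: mean log2 deviation from the average library of other protein-coding genes with transcripts of up to 700 bases. Saline is blue and LPS orange; control libraries span 1.29% to 1.72% in saline and 1.41% to 2.76% after LPS, and the short transcripts are also higher after LPS in control groups.

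LPS raised a minority of members in control offspring, by 0.63 or more on the log2 scale, and no member fell there. The edgeR quasi-likelihood test, adjusted over all genes tested (adjusted p under 0.05 is called here), called 17 of 76 members higher in control cortex (22.4%), where it called 10.9% of all genes higher and 7.25% lower. In control striatum it called 21 higher (27.6%), against 12.7% of all genes higher and 8.15% lower. All 17 of the cortex were among the 21 of the striatum. The direction was shared: 75 members in cortex and all 76 in striatum had a positive log2 fold change. Over all genes 52.4% and 48.8% were positive. The members' medians were 0.50 and 0.55, while the medians over all genes were 0.04 and -0.02. Since members vary together from library to library, these are not 76 separate observations. LPS libraries lay above all saline libraries for 12 members in control cortex and 28 in control striatum, and the same held for 18% and 17.6% of all genes.

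These counts depended on single libraries. In control cortex 4 members were called without LPS replicate 2, 5 without saline replicate 3, 9 without saline replicate 1, 10 without LPS replicate 1 and 33 without LPS replicate 3. In control striatum 10 were called without LPS replicate 2 or without saline replicate 2, 11 without LPS replicate 3, 12 without saline replicate 1 and 13 without saline replicate 3.

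In MIA offspring few members were called. In MIA cortex 2 members, Rps2 among them, were called higher and 1, Rps27, lower, against 7.05% and 4.85% of all genes. In MIA striatum Rps2 was higher and Rps27 lower, against 6.93% and 3.31%. The medians over members were 0.10 and -0.05, with 52 and 31 of 76 positive. LPS libraries lay above all saline libraries for 2 members in MIA cortex and 16 in MIA striatum (14.2% and 24.3% of all genes) and below for 2 and 8 (12.6% and 20.1%). The MIA counts fell to 0 without LPS replicate 1, LPS replicate 2 or saline replicate 3 in cortex, where 1 remained called without saline replicate 2, and in striatum to 0 without either LPS library or without saline replicate 1 or 2, and to 1 without saline replicate 3. With the excluded library added, MIA striatum had 3 members higher and 0 lower. Averaged over the 4 settings, 32 members were higher and 1 lower, with 20.7% of all genes higher and 16.9% lower. Without MIA striatum LPS replicate 2, 20 members were called. The fit takes cortex and striatum libraries as independent, and the labels do not say whether they came from the same mice. If they did, the errors and adjusted p of all averages over regions given here leave that out.

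**Figure D2:**
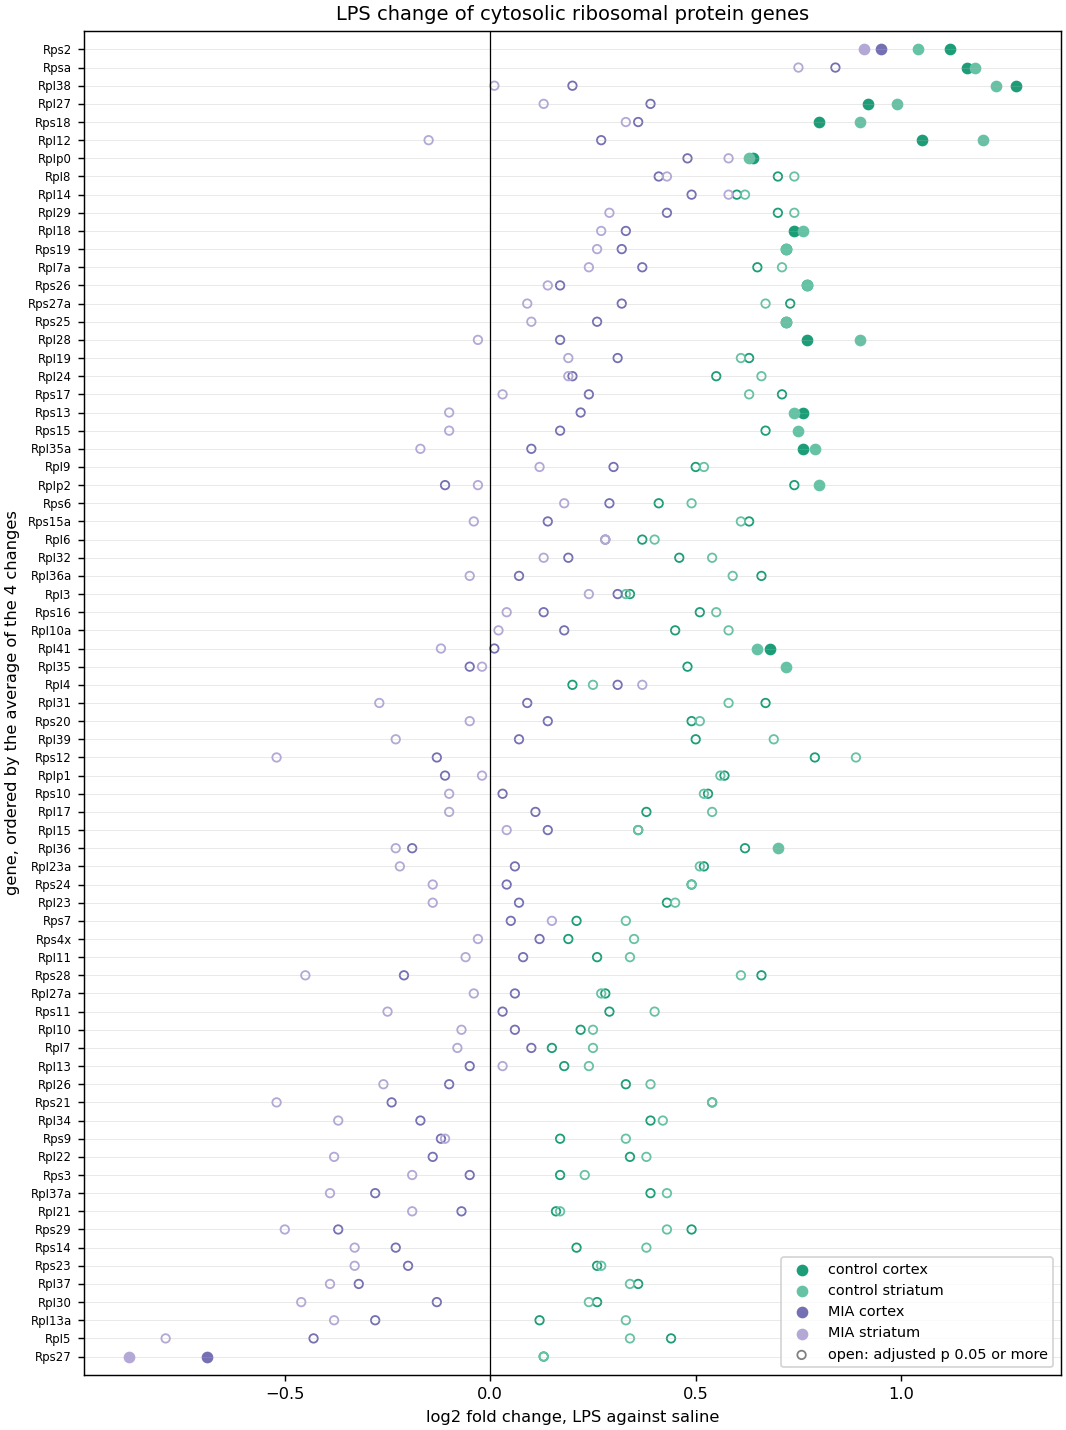
Log2 fold change, LPS against saline, of 73 of the 76 genes (rows, ordered by their average) in control cortex, control striatum, MIA cortex and MIA striatum. Filled points passed an adjusted p of 0.05; nearly all green control points lie right of 0, while the purple MIA points straddle it, with Rps2 and Rpsa at the top and Rps27 at the bottom.

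The 40S gene Rps2 (ENSMUSG00000044533.15), whose protein sits at the mRNA entry channel, was the only member called higher in all 4 settings. In saline it stood at 418, 436 and 294 CPM in control cortex, at 404, 396 and 255 in control striatum, at 560, 409 and 325 in the MIA cortex and at 521, 480 and 326 in MIA striatum. After LPS it stood at 905, 1030 and 570 CPM in control cortex, 544, 948 and 676 in control striatum, 856, 941 and 708 in the MIA cortex and 814 and 847 in the MIA striatum. The LPS libraries exceeded every saline library of their own setting in each case. The log2 fold changes were 1.12 ± 0.26 (SE, adjusted p = 0.00451), 1.04 ± 0.26 (adjusted p = 0.00725), 0.95 ± 0.26 (adjusted p = 0.0207) and 0.91 ± 0.29 (adjusted p = 0.049) in that order. The MIA calls were narrow. In MIA cortex the adjusted p was 0.0823 without LPS replicate 2 and above 0.05 in 3 other omissions. In MIA striatum it was above 0.05 when any of the 5 libraries was left out. Whether the control striatum call of Rps2 depends on single libraries was not examined.

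Rpsa (ENSMUSG00000032518.6), a 40S protein also known as the laminin receptor precursor, more than doubled on average in control offspring. Its levels went from 201, 239 and 125 to 448, 582 and 234 CPM in control cortex and from 184, 182 and 110 to 244, 519 and 318 CPM in control striatum. LPS replicate 3 of the cortex overlapped the saline libraries, and the striatum groups did not overlap. The log2 fold changes were 1.16 ± 0.37 (adjusted p = 0.0355) and 1.18 ± 0.38 (adjusted p = 0.029). The calls were lost without LPS replicate 2 in either region (adjusted p = 0.172 and 0.159), without saline replicate 1 or 3 in either region, without LPS replicate 1 in cortex and without saline replicate 2 in striatum. In MIA offspring the values were 0.84 ± 0.37 in cortex (adjusted p = 0.171) and 0.75 ± 0.41 in striatum (adjusted p = 0.313).

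Other 40S genes moved less. Rps19, the gene most often mutated in Diamond-Blackfan anaemia, rose by 0.72 ± 0.17 in both control regions (adjusted p = 0.0055 in cortex and 0.00503 in striatum), from 221 ± 32.3 to 364 ± 76.1 CPM and from 210 ± 3.75 to 347 ± 36.7 CPM (SD, n = 3). These calls held when any single library was left out, but not with an offset for transcript length described further on, which gave 0.20 in cortex and 0.17 in striatum (adjusted p = 0.25 and 0.324). Rps6, the substrate of the S6 kinases, had values of 0.41 ± 0.23 in control cortex (adjusted p = 0.259) and 0.49 ± 0.23 in control striatum (adjusted p = 0.151), and passed only as the average of the 4 settings (0.35 ± 0.12, adjusted p = 0.0276). That call was lost without any of 6 libraries (adjusted p up to 0.0808, without MIA striatum LPS replicate 2), and the length offset gave 0.04 (adjusted p = 0.83). Rps27a, which is made as a fusion with ubiquitin, likewise passed only as the average (0.45 ± 0.15, adjusted p = 0.0197), lost without MIA striatum LPS replicate 2 (adjusted p = 0.057) and with the length offset (0.13, adjusted p = 0.465). Rps3 of the mRNA entry site had an average change of 0.04 ± 0.11 (adjusted p = 0.832), and Rps21, the least abundant member, of 0.08 ± 0.15 (adjusted p = 0.736).

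Rps27 (ENSMUSG00000090733.6), a zinc-binding 40S protein, was the only member called lower. Its saline levels were 252, 240 and 212 CPM in control cortex and 196, 206 and 292 in control striatum, but 444, 288 and 387 in MIA cortex and 386, 414 and 325 in MIA striatum. After LPS they were 208, 366 and 197 CPM in control cortex, 205, 252 and 301 in control striatum, 227, 215 and 252 in the MIA cortex and 193 and 214 in MIA striatum. LPS and saline libraries overlapped in both control regions and in neither MIA region, where saline was higher. The log2 fold change was -0.69 ± 0.22 in MIA cortex (adjusted p = 0.0442) and -0.88 ± 0.25 in MIA striatum (adjusted p = 0.0265), against 0.13 ± 0.22 in both control regions (adjusted p = 0.773 and 0.753). The call in MIA cortex was lost without any of its libraries but saline replicate 2, and that in MIA striatum without any but saline replicate 3, or with the excluded library added (adjusted p = 0.0932). The paralog Rps27l, a target of p53, went the other way, with an average change of 0.96 ± 0.09 (adjusted p = 2.11e-08).

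The stalk genes behaved unevenly. Rplp0 (ENSMUSG00000067274.10) went from 953, 924 and 691 to 1470, 1560 and 965 CPM in control cortex and from 927, 863 and 636 to 1080, 1520 and 1160 CPM in control striatum. No LPS library lay below a saline library of its region, although the lowest LPS library in cortex (965) was close to the highest saline one (953). The log2 fold changes were 0.64 ± 0.22 (adjusted p = 0.046) and 0.63 ± 0.22 (adjusted p = 0.0434). Both calls were lost when any of 5 of the 6 libraries was left out (adjusted p up to 0.191 in cortex and 0.177 in striatum), the exceptions being LPS replicate 3 in cortex and LPS replicate 1 in striatum, or with the excluded library added (0.062 and 0.056). In MIA offspring the value for Rplp0 was 0.48 ± 0.22 in cortex and 0.58 ± 0.24 in striatum (adjusted p = 0.183 and 0.149). Of its P partners, Rplp2 was called in control striatum (0.80 ± 0.27, adjusted p = 0.0374), a call also lost without any of the 5 libraries other than LPS replicate 1, and Rplp1 was not called there (0.56 ± 0.30, adjusted p = 0.211).

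Among 60S genes Rpl38 (ENSMUSG00000057322.12), known for its part in the translation of Hox mRNAs, had the largest change in control cortex. It went from 21.7, 23.4 and 20.6 to 50.2, 71.4 and 38.3 CPM in control cortex and from 18.6, 22.2 and 27.2 to 45.1, 43.5 and 70.7 CPM in control striatum. The groups did not overlap in either region, and the log2 fold changes were 1.28 ± 0.26 (adjusted p = 0.00119) and 1.23 ± 0.26 (adjusted p = 0.0016). In MIA offspring the saline libraries were already at 57.4, 30.4 and 38.5 CPM in cortex and 46.2, 45.4 and 39.2 in striatum. After LPS they stood at 40.7, 41.2 and 62.9 CPM and at 44.7 and 42.9 CPM, so the groups overlapped, with changes of 0.20 ± 0.25 (adjusted p = 0.729) and 0.01 ± 0.28 (adjusted p = 0.998).

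**Figure D3:**
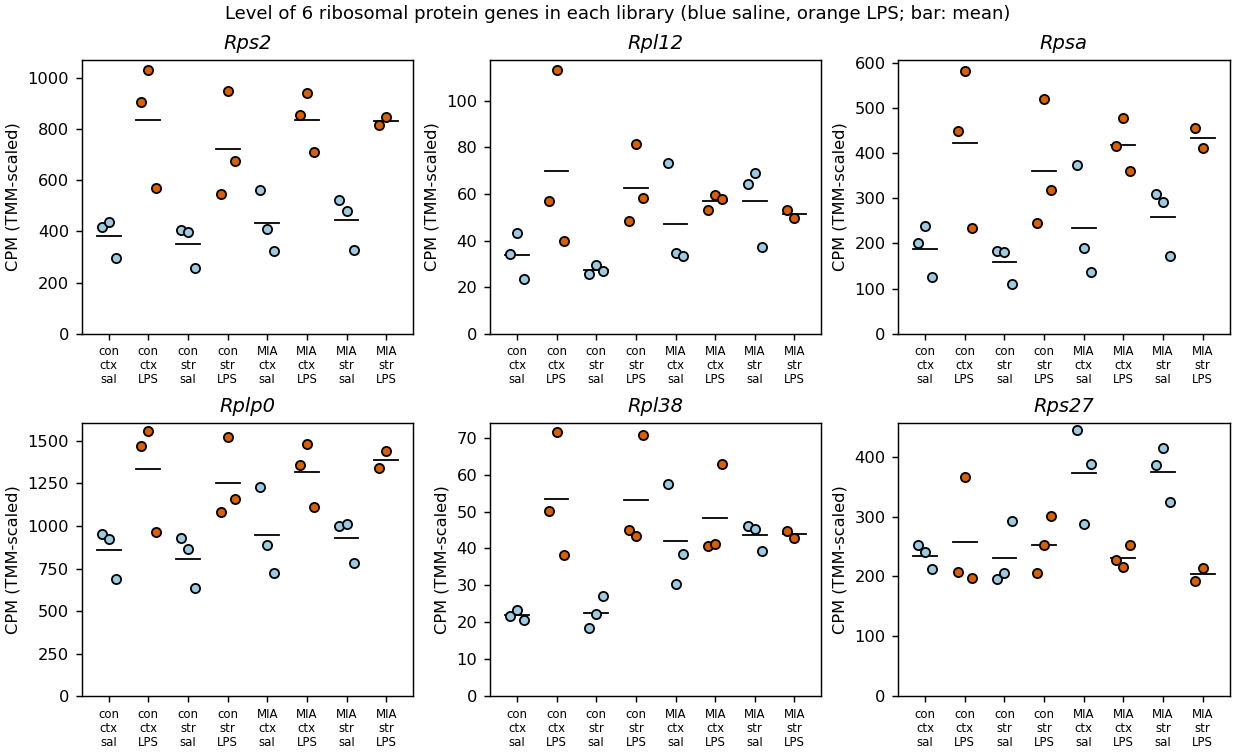
Level of Rps2, Rpl12, Rpsa, Rplp0, Rpl38 and Rps27 in each of the 23 libraries (CPM scaled by TMM, linear axes from 0; bars are group means). Rps2 is higher after LPS in all 4 settings, Rpl38 is lowest in the 6 control saline libraries (18.6 to 27.2 CPM), and the 2 highest group means of Rps27 are those of MIA saline (373 and 375 CPM).

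Rpl12, at the base of the stalk, went from 34.4, 43.3 and 23.7 to 57.1, 113 and 39.8 CPM in control cortex, where the groups overlapped, and from 25.8, 29.5 and 26.8 to 48.6, 81.4 and 58.1 CPM in control striatum, where they did not. The changes were 1.05 ± 0.34 (adjusted p = 0.038) and 1.2 ± 0.35 (adjusted p = 0.017). The striatum call was lost without LPS replicate 2 (adjusted p = 0.0792) or saline replicate 1 (0.0619). Whether the cortex call depends on single libraries was not examined for this gene. Rpl41, the smallest ribosomal protein, was called in both control regions at 0.68 ± 0.22 and 0.65 ± 0.22 (adjusted p = 0.038 and 0.0414). It lost the call in either region without any of 5 of the 6 libraries, the exceptions being LPS replicate 3 in cortex and LPS replicate 1 in striatum, and when the excluded library was added (adjusted p = 0.067 and 0.0686).

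Other called members, listed after their values were seen, lay in a narrow range. They included Rps25, Rpl18, Rps13, Rpl35a, Rpl28, Rps26, Rps18 and Rpl27 in both control regions, at 0.72 to 0.92 in cortex and 0.72 to 0.99 in striatum, and Rpl36, Rpl35 and Rps15 in control striatum, at 0.70 to 0.75. Of the remaining 60S genes of the fixed list, none was called in any single setting, and the same held for Rpl3, Rpl4 and Rpl22. Rpl5 and Rpl11, which with 5S rRNA can bind Mdm2 and stabilise p53, had average changes of -0.11 ± 0.15 (adjusted p = 0.612) and 0.16 ± 0.15 (adjusted p = 0.471). Rpl13a, known in myeloid cells as part of a complex that silences inflammatory mRNAs, had an average change of -0.05 ± 0.12 (adjusted p = 0.781). Rpl10, the last protein to join the 60S subunit, stood at 0.12 ± 0.15 (adjusted p = 0.58), Rpl39 of the exit tunnel at 0.26 ± 0.16 (adjusted p = 0.243), Rpl3 at 0.31 ± 0.12 (adjusted p = 0.0515) and Rpl22 at 0.05 ± 0.15 (adjusted p = 0.84). Rpl4 passed as an average (0.28 ± 0.11, adjusted p = 0.0431) with values of 0.20 to 0.37 in the single settings. Whether that call of Rpl4 depends on single libraries was not examined. As groups, the 46 large-subunit and 30 small-subunit genes had medians of 0.47 and 0.58 in control cortex and 0.54 and 0.58 in control striatum, with 8 and 9 called in cortex and 11 and 10 in striatum.

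At rest, after saline, every member had a higher estimate in MIA than in control offspring, but none passed the test. The median log2 fold change was 0.36 in cortex and 0.60 in striatum, with all 76 positive in both regions, while the median over all genes was 0.00 in both. The edgeR test called 0 members (lowest adjusted p = 0.906 in cortex and 0.918 in striatum) and 0% of all genes in either region, and DESeq2 also called 0 members. At an unadjusted p under 0.05, 17 members were higher in cortex and 46 in striatum, against 3.58% and 2.82% of all genes. MIA libraries lay above all control libraries for 13 members in cortex and 45 in striatum, against 7.04% and 6.58% of all genes. The members vary together, so they are not independent of one another. In cortex the median was 0.10 without MIA saline replicate 1, with 7 members at an unadjusted p under 0.05, and 0.21 without control saline replicate 3, with 9. In striatum the median was 0.51 to 0.77 when any 1 library was left out, with 27 to 59 such members.

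Rpl38 had the smallest p in cortex. The control saline libraries of this gene, at 20.6 to 23.4 CPM in cortex and 18.6 to 27.2 CPM in striatum, lay below all MIA saline libraries, at 30.4 to 57.4 and 39.2 to 46.2 CPM. The log2 fold change was 0.94 ± 0.26 in both regions (unadjusted p = 0.0015 and 0.00145). Rps28 and Rps29, small 40S proteins that were picked out after their values were seen, did not overlap either. Rps28 stood at 55.0 to 73.7 against 100 to 156 CPM in cortex and at 58.8 to 65.6 against 95.3 to 153 CPM in striatum. Rps29 stood at 174 to 211 against 285 to 478 CPM in cortex and at 174 to 204 against 299 to 397 CPM in striatum. By contrast Rps2 differed by 0.17 ± 0.26 and 0.33 ± 0.26 (unadjusted p = 0.514 and 0.218), with overlapping libraries.

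After LPS, the medians over members, MIA minus control, were -0.03 in cortex and 0.02 in striatum, and 26 and 45 of 76 were positive. The edgeR test called 0 members in each region (0% and 0.146% of all genes), 0 had an unadjusted p under 0.05, and DESeq2 called 0.

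The interaction, which is the LPS change in MIA minus that in control offspring, was negative for 75 of 76 members in each region, the exception being Rpl4 (0.12 ± 0.21 on average). Its median was -0.42 in cortex, -0.61 in striatum and -0.53 averaged over both. The edgeR test called 0 members in each of the 3 forms (0%, 0% and 0.0175% of all genes), with 9, 22 and 32 at a negative value and an unadjusted p under 0.05, against 2.65%, 4.27% and 5.72% of all genes. The smallest adjusted p for the average was that of Rpl38 (-1.15 ± 0.26, adjusted p = 0.104), followed by Rps27 (-0.91 ± 0.23, adjusted p = 0.147). DESeq2 called these 2 members and no other, Rpl38 at -1.14 ± 0.28 (adjusted p = 0.00687) and Rps27 at -0.91 ± 0.23 (adjusted p = 0.0141), where it called 1.42% of 10491 genes. In cortex the median interaction was -0.14 without control LPS replicate 2 and -0.19 without MIA saline replicate 1, with 1 and 2 members at an unadjusted p under 0.05 in place of 9. In striatum it was -0.38 without control LPS replicate 2, and the count of 22 went to between 7 and 10 without any of 6 libraries (control LPS replicate 2 or 3, MIA LPS replicate 1 or 2, MIA saline replicate 1 or 2), to 9 with the excluded library added, and to 34 without MIA saline replicate 3. The saline libraries enter both the interaction and the resting comparison, so these are not independent results.

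Between the regions no member was called. The striatum-minus-cortex median was -0.13 in control saline, 0.09 in MIA saline, -0.10 in control LPS and -0.04 in MIA LPS. The edgeR test called 0 members in each of these comparisons and in their average (0.502%, 0.0817%, 0.0175%, 0.0117% and 2.45% of all genes), none had an unadjusted p under 0.05, and DESeq2 called none.

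Ribosomal protein transcripts are short, with a median of 795 bases, and many short transcripts of other genes rose with LPS too. Each length is that of 1 annotated transcript chosen per gene, and the longest chosen for a member had 5179 bases. The length classes, the levels per kilobase and the offset described below depend on that choice. Among 109 other protein-coding genes with transcripts of up to 700 bases, the median log2 fold change was 0.64 in control cortex and 0.57 in control striatum, and 0.21 and 0.10 in MIA cortex and striatum, with 59.6%, 55%, 15.6% and 11.9% called higher. In the same order it was -0.15, -0.07, -0.03 and 0.00 for the 1664 genes over 4000 bases. The 29 members of up to 700 bases had medians of 0.62 and 0.63 in control cortex and striatum and of 0.06 and -0.17 in MIA cortex and striatum, where those of the other short genes were 0.21 and 0.10. In the next length classes the medians of 23, 14 and 8 members in control cortex were 0.48, 0.47 and 0.35, against 0.40, 0.29 and 0.17 for the other genes of those classes. In control striatum they were 0.54, 0.50 and 0.35 against 0.51, 0.42 and 0.24. At rest, MIA minus control was 0.25 in cortex and 0.29 in striatum for the other short genes, and 0.50 and 0.73 for the 29 short members. Mean deviations of the other short genes ranged from -0.48 to -0.32 over control saline libraries and from 0.20 to 0.61 over control LPS libraries.

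With an offset for transcript length in each library, learned from the other genes and chosen after this pattern was seen, the members' median log2 fold change was near 0. It became 0.06 in the cortex and 0.04 in the striatum of control offspring, and -0.08 and -0.17 in those of MIA offspring. The calls were 3 higher and 1 lower in control cortex (9.04% and 8.97% of all genes), 2 higher and 1 lower in control striatum (8.73% and 11%), 2 higher and 3 lower in MIA cortex (5.95% and 6.57%) and 0 higher and 1 lower in MIA striatum (5.7% and 5.17%). As the average, 9 were higher and 11 lower, against 16.4% and 21.7% of all genes.

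Several members lost their calls with the offset. Rpsa stood at 1.03 and 0.95 in control cortex and striatum (adjusted p = 0.0721 and 0.0886), Rplp0 at 0.37 and 0.26 (0.222 and 0.384), Rpl12 at 0.75 and 0.81 (0.119 and 0.0828) and Rpl41 at 0.02 in both (0.964 and 0.96). Rplp2 stood at 0.35 in control striatum (adjusted p = 0.314). Others were called with the offset. Rps2 rose in control cortex (0.75 ± 0.23, adjusted p = 0.0305) and MIA cortex (0.76 ± 0.23, adjusted p = 0.0388), and stood at 0.59 ± 0.23 in control striatum (adjusted p = 0.0856) and 0.78 ± 0.26 in MIA striatum (adjusted p = 0.0599). Rpl38 rose in both control regions, at 0.55 ± 0.17 and 0.56 ± 0.17 (adjusted p = 0.0252 and 0.0206). Rps27, among the shortest at 345 bases, was lower in all 4 settings, at -0.62 ± 0.14, -0.54 ± 0.14, -0.94 ± 0.14 and -0.92 ± 0.16 (adjusted p = 0.00384, 0.00925, 0.000133 and 0.000706). Rps29 was called lower with the offset in MIA cortex alone among the 4 settings (-0.60 ± 0.19, adjusted p = 0.0411), and was named after its values were seen. At rest, MIA against control was positive with the offset for all 76 members too, with medians of 0.26 in cortex and 0.41 in striatum and 0 calls. The interaction had medians of -0.16 in cortex, -0.23 in striatum and -0.20 on average with the offset, with 18, 13 and 16 members positive and 1, 4 and 10 at an unadjusted p under 0.05.

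**Figure D4:**
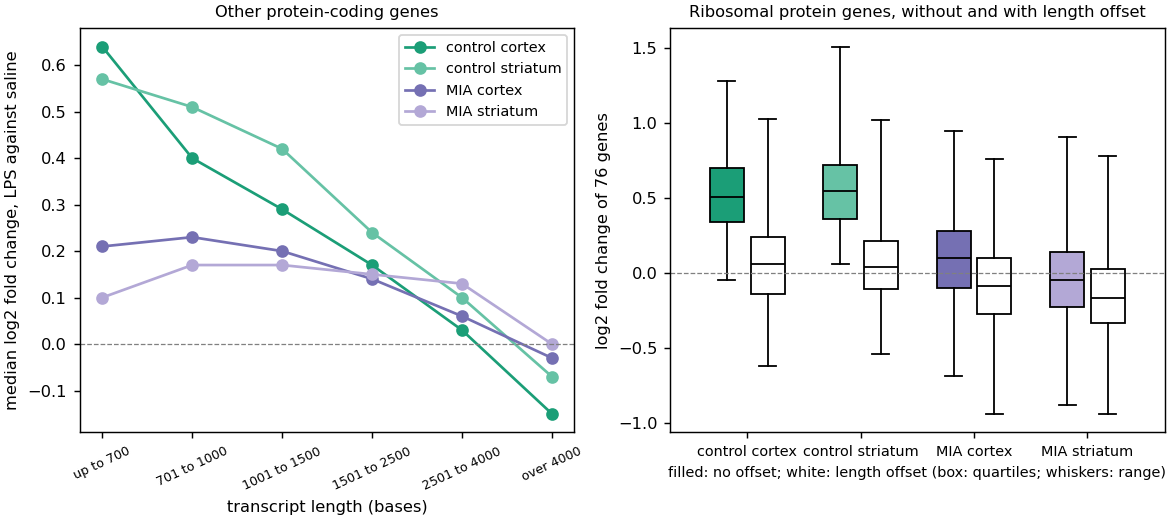
Left: median log2 fold change with LPS of other protein-coding genes in 6 classes of transcript length, from up to 700 to over 4000 bases, in each of the 4 settings. Right: log2 fold changes of the 76 members without (filled) and with (white) the length offset; boxes are quartiles and whiskers the full range. In control cortex the other genes fall from 0.64 to -0.15 with length, and the members' median goes from 0.50 to 0.06 with the offset.

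Members were also divided by the sequence that they share with other genes. The median member shared 50.7% of its 50-base stretches with another gene's transcript. The 38 members above that value had medians of 0.60 in both control regions with 10 and 11 called, and the 38 below had 0.49 and 0.50 with 7 and 10 called. Rps2 shared 79.0% of its stretches with transcripts of 71 other genes and Rps27 98.6% with 9, so their levels depend on how reads were divided. Of the pseudogenes named after members, 49 passed the filter, and 2, 3, 1 and 0 of these were called higher in control cortex, control striatum, MIA cortex and MIA striatum.

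Most of the factors that build ribosomes rose in each of the 4 settings. For this and the lists below, the shares of all genes called higher were 10.9%, 12.7%, 7.05% and 6.93% in control cortex, control striatum, MIA cortex and MIA striatum. The shares called lower were 7.25%, 8.15%, 4.85% and 3.31%. Of 42 nucleolar and assembly factors, 35 rose in the cortex and 38 in the striatum of control offspring, 31 and 32 rose in those of MIA offspring, and none fell in any of the 4. Their medians were 0.91, 1.26, 0.82 and 0.89, against 0.50, 0.55, 0.10 and -0.05 for the ribosomal protein genes. With the length offset 33, 34, 30 and 27 rose and 1, 1, 0 and 0 fell. Rrs1, needed for assembly of the 60S precursor, stood at 10.9, 12.4 and 14.6 CPM in control cortex saline and at 56.5, 45.4 and 44.0 CPM after LPS, and at 8.37, 14.0 and 13.3 CPM against 32.4, 35.4 and 34.8 CPM in MIA cortex. The groups did not come near each other, with log2 fold changes of 1.94 ± 0.19 (adjusted p = 3.62e-07) and 1.53 ± 0.18 (adjusted p = 1.11e-05). Wdr12 of the PeBoW complex, Nop16 and the U3 snoRNP protein Rrp9 rose in all 4 settings, with average changes of 1.30 ± 0.07, 1.52 ± 0.10 and 1.32 ± 0.08 (adjusted p = 1.19e-11, 1.28e-10 and 1.3e-10).

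Of 25 initiation factors, 12 rose and 1 fell in control cortex, 15 rose and 1 fell in control striatum, and 11 and 8 rose with none falling in MIA cortex and striatum. Eif4a1, the helicase that unwinds the 5′ end of mRNAs, rose in all 4 settings, with an average change of 1.24 ± 0.08 (adjusted p = 1.22e-10), as did Eif2s1 (1.18 ± 0.08, adjusted p = 1.52e-10), Eif5a (1.15 ± 0.08, adjusted p = 2.42e-10) and Eif3l (0.64 ± 0.05, adjusted p = 8.08e-09). Of 18 subunits and factors of RNA polymerases I and III, which transcribe rRNA, 7, 9, 2 and 5 rose in the 4 settings and 1 fell in each. Polr1e had an average change of 1.29 ± 0.13 (adjusted p = 5.53e-08), Polr1b of 0.97 ± 0.10 (adjusted p = 1.19e-07) and Polr3d of 1.02 ± 0.12 (adjusted p = 1.16e-06), and Maf1, the repressor of polymerase III, fell by 0.54 ± 0.06 on the log2 scale (adjusted p = 2.31e-07).

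Of 16 elongation factors and other genes known to carry the TOP motif, 3, 5, 2 and 1 rose and none fell in the 4 settings, with medians of 0.35, 0.42, 0.29 and 0.18. With the length offset 2, 1, 1 and 1 rose and 1, 2, 0 and 0 fell, with medians of 0.15, 0.19, 0.13 and 0.02. Eef1g was the one that rose in all 4 (average 0.93 ± 0.09, adjusted p = 7.99e-08). Hnrnpa1 had an average change of 0.76 ± 0.11 (adjusted p = 1.62e-05), Eef1d of 0.47 ± 0.09 (adjusted p = 0.000325) and Btf3 of 0.54 ± 0.12 (adjusted p = 0.00135). Over all genes 10.9%, 12.7%, 7.05% and 6.93% were called higher in the 4 settings and 7.25%, 8.15%, 4.85% and 3.31% lower. Of 25 genes of growth signalling, 2, 3, 1 and 4 rose and 2, 2, 2 and 1 fell. Those that moved were not of 1 kind: Eif4ebp1, an inhibitor of cap-dependent initiation, had an average change of 1.96 ± 0.11 (adjusted p = 1.71e-11) and the growth regulator Myc of 0.94 ± 0.13 (adjusted p = 4.09e-06), while Sesn1, an inhibitor of mTORC1, and Rptor, a subunit of mTORC1, had average changes of -1.05 ± 0.10 (adjusted p = 2.25e-08) and -0.85 ± 0.11 (adjusted p = 3.4e-06).

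The ribosomal protein genes outside the naming rule and the paralogs were few. Of the 4 with other names, Rack1 alone was called, in control striatum (1.28 ± 0.37, adjusted p = 0.0173) and as the average (0.88 ± 0.19, adjusted p = 0.000803), and Fau and Rps3a1 had average changes of -0.12 and 0.11. Of 6 paralogs tested, 3, 2, 2 and 0 rose in the 4 settings. Rpl36al had an average change of 0.83 ± 0.12 (adjusted p = 6.05e-06), Rpl22l1 of 0.54 ± 0.14 (adjusted p = 0.00393) and Rpl7l1 of 0.15 ± 0.05 (adjusted p = 0.0258).

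**Figure D5:**
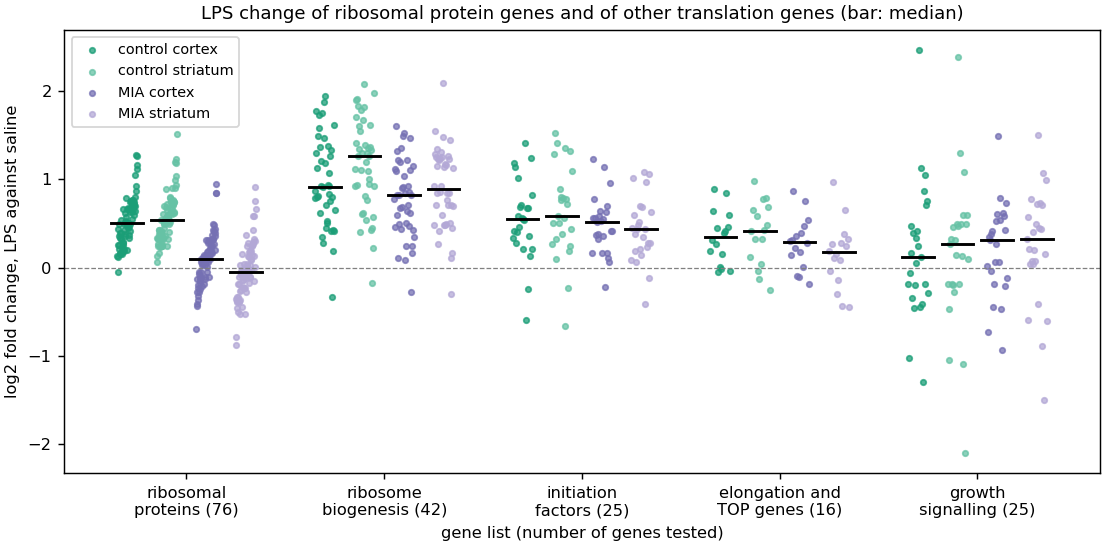
Log2 fold change with LPS of each gene in 5 lists (points; bars are medians) in control cortex, control striatum, MIA cortex and MIA striatum. Ribosome biogenesis factors have medians from 0.82 to 1.26 in all 4 settings, whereas the 76 ribosomal protein genes have 0.50 and 0.55 in control and 0.10 and -0.05 in MIA offspring.

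Markers of other blood cells changed with LPS as well, and their part in the results above was not tested. Of 11 neutrophil markers 6, 8, 1 and 6 rose in control cortex, control striatum, MIA cortex and MIA striatum, and 2 fell in MIA cortex. Their summed level was 410 to 658 CPM in saline and 917 to 1100 after LPS in control cortex, 303 to 341 and 630 to 927 in control striatum, 553 to 1010 and 577 to 900 in MIA cortex, and 299 to 369 and 618 to 901 in MIA striatum. Of 9 monocyte markers 4, 5, 2 and 6 rose, and their sum went from 212 to 354 up to 459 to 781 CPM in control cortex, from 212 to 278 up to 349 to 548 in control striatum, from 265 to 392 up to 486 to 773 in MIA cortex and from 103 to 234 up to 550 to 767 in MIA striatum. These sums lean on single genes and do not measure cell numbers. In the neutrophil list Csf3r had 5725 to 10996 counts per library, while S100a8 began at 109 and Ltf at 6. In the monocyte list F13a1, which is also in the border macrophage list, had 1466 to 12580 counts. Ly6g, which defines neutrophils, was at 0 in 6 of the 23 libraries. Of 10 lymphocyte genes, Cd3e, Cd3d, Cd8a and Ms4a1 were at 0 in 16, 20, 22 and 14 libraries, Cd79a and Klrb1c in 7 and 5, and Cd4, Nkg7 and Il7r in none. Of the list 5 genes were tested, of which 1, 1, 0 and 0 rose and 1, 2, 1 and 1 fell with LPS. The summed level of the list was 54 to 74.5 CPM in saline and 15.7 to 21 after LPS in control cortex, 28.4 to 35.9 and 8.52 to 12.3 in control striatum, 37.7 to 49.8 and 11 to 18.3 in MIA cortex, and 33 to 40.2 and 7.73 to 9.74 in MIA striatum. Of 15 microglial markers 11, 9, 9 and 8 fell with LPS and 2, 2, 0 and 0 rose. Of 8 markers of border macrophages 0, 0, 0 and 4 rose and 1, 1, 1 and 0 fell. Of 10 endothelial markers 1, 0, 1 and 0 rose and 1, 5, 1 and 1 fell. Of 7 pericyte markers 1, 0, 0 and 0 rose and 0, 4, 0 and 0 fell. Of 10 neuron, 8 striatal neuron and 8 oligodendrocyte markers 1, 1 and 2 fell in control striatum, and no other was called in any setting. Of 8 astrocyte markers 1, 1, 0 and 0 rose and 1, 1, 0 and 0 fell. Between MIA and control in saline, where 0% of all genes were called, the median log2 differences were 1.08 in cortex and -0.52 in striatum for the neutrophil list, 1.36 and -0.12 for 8 astrocyte markers, 0.72 and -0.84 for the endothelial list and -0.17 and 0.14 for the microglial list. They were 0.50 and -0.27 for the monocyte list and 1.08 and -0.64 for the pericyte list, and the part of these differences in the members' values was not tested. In the same libraries mitochondrial genes, a sign of RNA and cell quality, took 2.10% to 4.22% of counts in control and 2.55% to 3.64% in MIA libraries.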

How the data were processed

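RNA-seq libraries were of the oligo-dT primed Smart-Seq2 kind. The deposited table holds the authors' expected counts per gene and library. Per the submitters' processing notes, STAR, RSEM and DESeq2 were used. Their versions and the genome build are not given in the sources used here. Expected counts were rounded to whole numbers. Of 55487 Ensembl identifiers, 55141 matched a symbol.

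Genes were kept by filterByExpr (minimum count 10, minimum total 15), libraries were scaled with TMM, and 1 term per group was fitted to 23 libraries in edgeR 4.0.16 under R 4.3.3 (15 residual degrees of freedom). The two-sided quasi-likelihood p-values were adjusted by Benjamini and Hochberg over 17139 genes in each of 17 comparisons. DESeq2 1.42.0 was an alternative. CPM are scaled by TMM; ± is SD for levels and SE for fold changes. The fit was checked on simulated data with planted changes. Lengths, shared 50-base stretches and the length offset used GENCODE mouse transcripts; length classes of other genes held protein-coding genes, those at 25 CPM or more on average.

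Members named were a fixed list of 15, the 4 largest called rises and falls per comparison (at least 10 CPM), the 3 highest and 3 lowest by mean, and members called in an interaction; up to 4 called genes with the smallest adjusted p for the LPS average were named per pathway list. The members and lists were chosen with earlier results of these data known. Results of a few genes are not reported here, though counts and medians include them.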

Additional observations from a re-analysis of the deposited data

Results flagged for a closer look

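MIA striatum LPS replicate 3, which its title marks as excluded, was in no comparison. The 76 ribosomal protein genes took 2.65% of its counts, more than in any of the 12 saline libraries (2.57% at most) and more than the 2.17% and 2.15% of the other libraries of its group. Mitochondrial genes took 6.16% of its counts, against at most 4.37% in the libraries used.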

How the results depend on the processing

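Members called are given for each setting. Scaling with TMM computed without the members left 1 in MIA striatum. With no filter on low counts the average interaction had 1 call, and with DESeq2 2. Leaving out 1 library gave 4 to 33 in control cortex, 10 to 28 in control striatum, 0 to 3 in MIA cortex, 0 to 1 in MIA striatum, 20 to 41 for the average LPS change and 0 to 1 for the average interaction. The transcript-length offset, added after the data were seen, gave 4, 3, 5 and 1 in control cortex, control striatum, MIA cortex and MIA striatum and 20 for the average, and turned the average change of Rpl41 to -0.09; the cause was not tested. Same-numbered libraries of different groups had a median correlation of 0.08 (77 pairs, -0.20 to 0.31), against -0.04 for other numbers. Of 23 libraries, 19 matched best with their own number, so libraries of 1 number share some variation. The labels do not say what a number stands for, and the main fit did not take the numbers as pairs. With a replicate block the calls were 27 in control cortex, 33 in control striatum and 5 in MIA cortex. With the block, 63 members in place of 46 had an unadjusted p under 0.05 for MIA against control in striatum saline. For the average interaction it was 54 in place of 32, and 0 were called in either. Differences in the summed share of counts moved by less than 1 SD when pseudogenes were added or mitochondrial counts removed. Depth was ample for all members; with 2 or 3 libraries a group, the spread between libraries limits the result.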
